A study of Mus musculus with 8 samples.

Results

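Microarrays with 2 colours of LiCl-treated mouse intestinal crypt cells after 1 day of culture are described here, as 2 of the 8 arrays of a study of the receptor gene Lgr4. The 2 arrays were chosen by their titles, which name LiCl and day 1, and no measured value entered that choice. On each, RNA labelled as coming from LiCl-treated Lgr4 null crypts shared the array with a second RNA, in opposite dyes on the 2 arrays. The null animals carried the allele Lgr4/Gpr48 Gt, a gene trap, back-crossed on CD1, and the normal animals were also CD1. The other 6 arrays set untreated null against wild-type crypts when fresh (day 0) and after 0.5 and 1 day of culture, with 2 arrays each, and the untreated day 1 pair serves as the comparison group below. The labels give no LiCl dose and no age, and do not say how many animals an array held or whether its replicates came from separate cultures, so p-values here reflect array-to-array scatter that may be only technical. Lgr4 itself had no probe among those used here, so the labels could not be checked against the trapped gene.

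What the second channel held is stated differently in the sources. The sample characteristics give it as wild-type crypts cultured with LiCl on both arrays, the source name of that channel mentions LiCl only on replicate 2, and the series' text speaks of LiCl-treated null crypts against control cells. The direction of the ratio is not settled either: over all 38467 probes each LiCl array correlated negatively with each of the 6 untreated arrays, with r from -0.493 to -0.0855, although the 6 untreated arrays correlated positively with one another. Values are therefore given as deposited, "above 0" and "below 0" are used in place of up and down, and the tested differences from the untreated day 1 arrays are given with the sign of the LiCl arrays turned as well. A log2 ratio of 1 is a 2-fold difference between the RNAs on an array, and the log base is taken to be 2.

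Lithium inhibits glycogen synthase kinase 3, the kinase that marks beta-catenin for destruction, and so is used in culture to switch on the Wnt pathway below its receptors. Lgr4 is a receptor for R-spondins, the secreted proteins that strengthen Wnt signals at the cell surface. In the small intestine Wnt signals keep the crypt base stem cells and their dividing progeny, drive the maturation of Paneth cells, which secrete lysozyme and defensins, and give way as cells move up to become absorptive enterocytes. Lithium also inhibits inositol monophosphatases and a few related magnesium-dependent phosphatases.

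Of 15123 genes measured, 8836 had the same sign on both LiCl arrays (58.4%), 4419 above 0 and 4417 below. The arrays correlated with r = 0.526 over genes and 0.403 over probes, against 0.804 over genes between the untreated day 1 arrays, as a description over genes, which are not independent replicates. Their values were also narrowly spread, with an SD over genes of 0.288 on replicate 1 and 0.262 on replicate 2, where the untreated day 1 arrays had 0.519 and 0.485. A linear model over all 8 arrays (limma, Benjamini-Hochberg adjusted p under 0.05 over all genes) placed 393 genes away from 0 on the LiCl arrays, 2.6% of those tested, with 206 above 0 (1.36%) and 187 below 0 (1.24%). All 393 had the same sign on both arrays. An unadjusted p under 0.05 was reached by 2083 genes (13.8%), the share to set beside such counts in the lists below. With the sign of the LiCl arrays turned before the fit, in which the dye term is shared with the other arrays, 740 genes were called (4.89%, 2.36% above 0 and 2.53% below), among them 380 of the 393. With arrays scaled to equal spread 1461 genes were called. In 37 genes both arrays were at least 2-fold above 0 (0.245%), and in 18 both were at least 2-fold below it (0.119%). These calls lean on the spread of the whole series: the LiCl arrays fitted alone gave 0 calls in limma, with 2426 genes at an unadjusted p under 0.05, and the whole model gave 8 calls without LiCl replicate 1 and 4 without LiCl replicate 2.

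**Figure D1:**
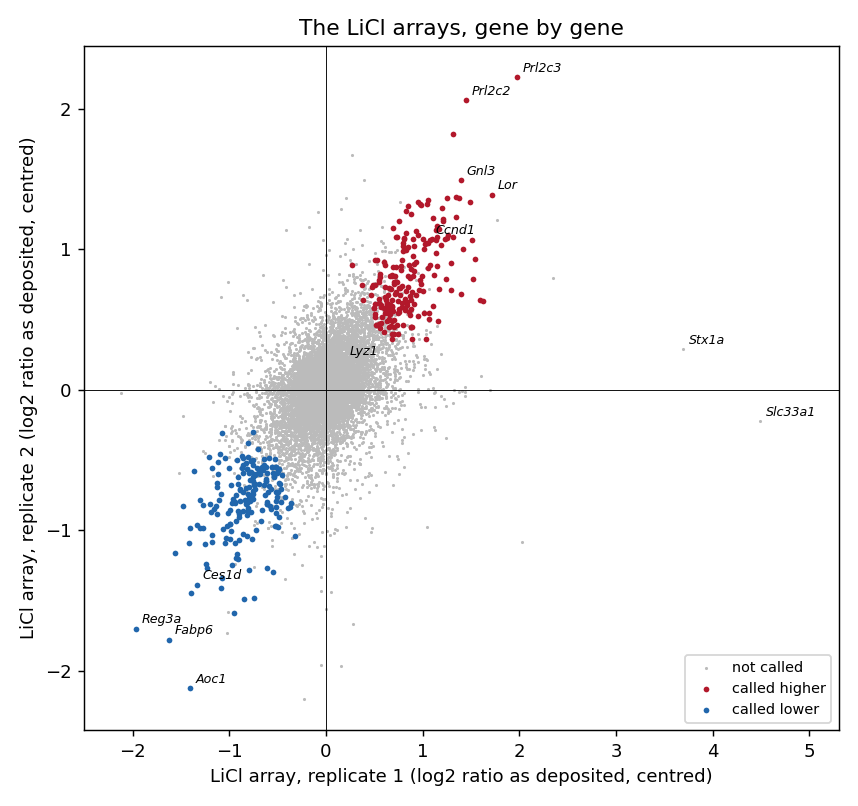
Log2 ratio as deposited on LiCl replicate 1 (x axis) and replicate 2 (y axis), each array centred on its median, with 1 point per gene; red points were called above 0 and blue points below 0. The called genes lie in the quadrants where both arrays share a sign, while Stx1a and Slc33a1 are far from 0 on replicate 1 only.

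Genes of DNA replication lay above 0 together. All but 1 of the 36 measured members of this list had both LiCl arrays above 0, none had both below, and 12 were called above 0, against 1.36% of all genes. The list's median was 0.49, beside -0.00 for all genes, and on the untreated day 1 arrays the same list had a median of -1.51, with 34 members called below 0, where 11.2% of all genes were. Mcm5, a subunit of the helicase that opens DNA ahead of the fork, was at 1.13 on replicate 1 and 1.14 on replicate 2 (fitted 1.13 ± 0.10 SE, n = 2 arrays, 2.20-fold, adjusted p = 0.00977). Both arrays thus placed it more than 2-fold above 0 and almost at the same value. Rpa1, which coats single-stranded DNA, was at 1.25 and 1.37 (fitted 1.31 ± 0.12, adjusted p = 0.00977), the highest of the list. Mcm2, Mcm7 and Mcm4, further subunits of the helicase, were fitted at 0.91, 0.83 and 0.68, although the 2 probes of Mcm4 stood apart at 0.25 and 1.12. The other called members were Cdc45 (0.95), which joins the helicase, Rfc4 (0.94), which loads the sliding clamp, Prim1 (0.92), a primase subunit, the polymerase subunits Pole (0.86) and Pold1 (0.58), the flap endonuclease Fen1 (0.72) and Dnmt1 (0.67), which copies DNA methylation after replication.

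Replication genes are known targets of E2F factors, so promoter windows of called members that hold E2F letters are shown, from RefSeq on GRCm38.p6. Windows run from 250 bases before to 50 after a transcript start, 5′ to 3′ on the gene's strand, and capitals mark the letters TTTCGCGC or TTTGGCGC on either strand, 2 overlapping matches in Mcm5. The windows are Mcm5 at chr8:75109259-75109558 (+), Mcm7 at chr5:138171834-138172133 (-), 1 of its 2 windows, and Dnmt1 at chr9:20952574-20952873 (-), 1 of its 3 windows.
Mcm5: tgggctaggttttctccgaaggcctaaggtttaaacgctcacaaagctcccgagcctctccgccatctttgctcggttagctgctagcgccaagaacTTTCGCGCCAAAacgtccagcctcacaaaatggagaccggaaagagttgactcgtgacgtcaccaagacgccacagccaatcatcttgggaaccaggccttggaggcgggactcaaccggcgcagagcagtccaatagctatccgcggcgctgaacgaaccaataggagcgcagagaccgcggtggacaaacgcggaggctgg
Mcm7: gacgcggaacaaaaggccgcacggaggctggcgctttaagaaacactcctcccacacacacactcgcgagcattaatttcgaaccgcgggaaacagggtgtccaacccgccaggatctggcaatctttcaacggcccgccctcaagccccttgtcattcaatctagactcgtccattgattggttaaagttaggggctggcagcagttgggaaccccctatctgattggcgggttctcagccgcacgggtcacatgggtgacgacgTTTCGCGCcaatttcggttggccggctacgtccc
Dnmt1: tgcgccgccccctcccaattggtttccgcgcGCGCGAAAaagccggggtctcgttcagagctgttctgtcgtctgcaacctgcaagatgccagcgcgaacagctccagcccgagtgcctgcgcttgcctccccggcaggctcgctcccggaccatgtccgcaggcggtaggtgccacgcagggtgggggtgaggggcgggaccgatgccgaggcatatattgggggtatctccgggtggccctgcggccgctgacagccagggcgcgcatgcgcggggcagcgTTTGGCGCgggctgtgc
In 12213 measured genes with a window these letters occurred in 1.48%, in 10 of the 31 replication genes with a window (32.3%) and in 3 of the 10 called ones, the 3 shown. Counted from the start, with upstream positions negative, the matches began at -153 and -149 in Mcm5, at 16 in Mcm7, and at -219 and 33 in Dnmt1. The E2F letters were picked after the values of the arrays were known, and a match describes the letters only.

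Mitosis genes were arranged alike. Of 34 measured, 31 had both LiCl arrays above 0 and none had both below. Called above 0 were 9, against 1.36% of all genes. The list median was 0.59 (untreated day 1: -1.46, with 31 called below 0, where 11.2% of all genes were). The difference from untreated day 1 was called above 0 in 31 of the 34 as deposited and in 17 with the sign turned. For all genes these shares were 10.4% and 3.87%. Prc1, which bundles microtubules of the central spindle, was at 1.20 and 1.30 (fitted 1.25 ± 0.14, adjusted p = 0.014). Cenpa, the centromere's histone H3, was at 1.13 and 0.98 (fitted 1.05 ± 0.10, adjusted p = 0.00977). Both were above 0 by a similar amount on each array. Kif23, a motor of the central spindle, stood at 1.21 on both arrays but had a wider error (± 0.24, adjusted p = 0.0497), and Ect2, a RhoA activator that works with it and belongs to no list used here, was at 1.49 and 1.34 (fitted 1.41, adjusted p = 0.016). Ccna2 (0.97), Aurka (0.96), Mad2l1 (0.75), Birc5 (0.70), Cdc20 (0.70) and Smc2 (0.59), which act from cyclin A activity to chromosome condensation and the spindle checkpoint, were the other called members, with the 3 probes of Cdc20 spread from 0.23 to 1.17. Ube2c, a ubiquitin-conjugating enzyme of mitotic exit, had the highest fitted value of the list, 1.57, but its arrays disagreed in size, 2.35 and 0.79, and it was not called (adjusted p = 0.18). The list of replication-dependent histones had a median of -0.00 and 0 of 18 members called (limma; 2 at an unadjusted p under 0.05, and 0 called with the sign turned), but the list holds only part of the class. H2ac15 and H2ac22, H2A histone genes outside it, were at 1.26 and 1.11 (fitted 1.18, adjusted p = 0.016) and at 0.88 and 1.25 (fitted 1.07, adjusted p = 0.0218). Among 15 measured genes with an H2ac symbol, counted after their values were seen, 7 were called above 0 and 1 below, H2ac19 at -0.72. For all genes these shares were 1.36% and 1.24%. These H2ac genes are near copies and their probes may share signal.

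Ribosome production formed the next group. Of 30 nucleolar ribosome biogenesis genes, 27 had both arrays above 0 and 10 were called above 0, against 1.36% of all genes. The list median was 0.59 (untreated day 1: -1.12). Gnl3 (nucleostemin), a nucleolar GTPase of dividing cells, was at 1.40 and 1.49 (fitted 1.45 ± 0.14, 2.72-fold, adjusted p = 0.0108). Fbl, the methyltransferase fibrillarin, was at 1.51 and 1.07 (fitted 1.29 ± 0.11, adjusted p = 0.00977), so that replicate 1 was the higher. Its partner Nop56 was fitted at 1.15, Npm1 (nucleophosmin) at 1.15, Ppan at 1.05, Ncl (nucleolin) at 0.93 and Noc2l at 0.91, and the called members ended with Nob1, Tsr1 and Nop2 at 0.79, 0.75 and 0.67. Lyar (1.29), a nucleolar protein, and Cmss1 (1.23) were also among the 15 highest and belong to no list used here.

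The ribosome's own proteins lay above 0 with a lower median. Of 48 cytosolic ribosomal protein genes, 39 had both arrays above 0, none had both below, and 5 were called above 0, against 1.36% of all genes. The list median was 0.41 (untreated day 1: -0.80, with 42 called below 0, where 11.2% of all genes were). The difference from untreated day 1 was called above 0 in 41 as deposited but in 9 with the sign turned. For splicing genes it was called above 0 in 15 and 7 of 20, and for all genes in 10.4% and 3.87%. Rplp0, of the ribosomal stalk, was at 0.79 and 0.74 (fitted 0.77 ± 0.10, adjusted p = 0.0167). Rpl13 was at 1.40 and 0.69 (fitted 1.04 ± 0.13, adjusted p = 0.0152), with replicate 1 far above replicate 2. Splicing genes had 16 of 20 members above 0 on both arrays and 4 called above 0, against 1.36% of all genes. Among the 4 was Snrpd1, a core protein of the splicing particles, at 1.01 and 1.00 (fitted 1.01, adjusted p = 0.015). Of 14 translation factors, Eef1g (0.70) and Eif4a1 (0.51) were called above 0, beside the same share of all genes.

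**Figure D2:**
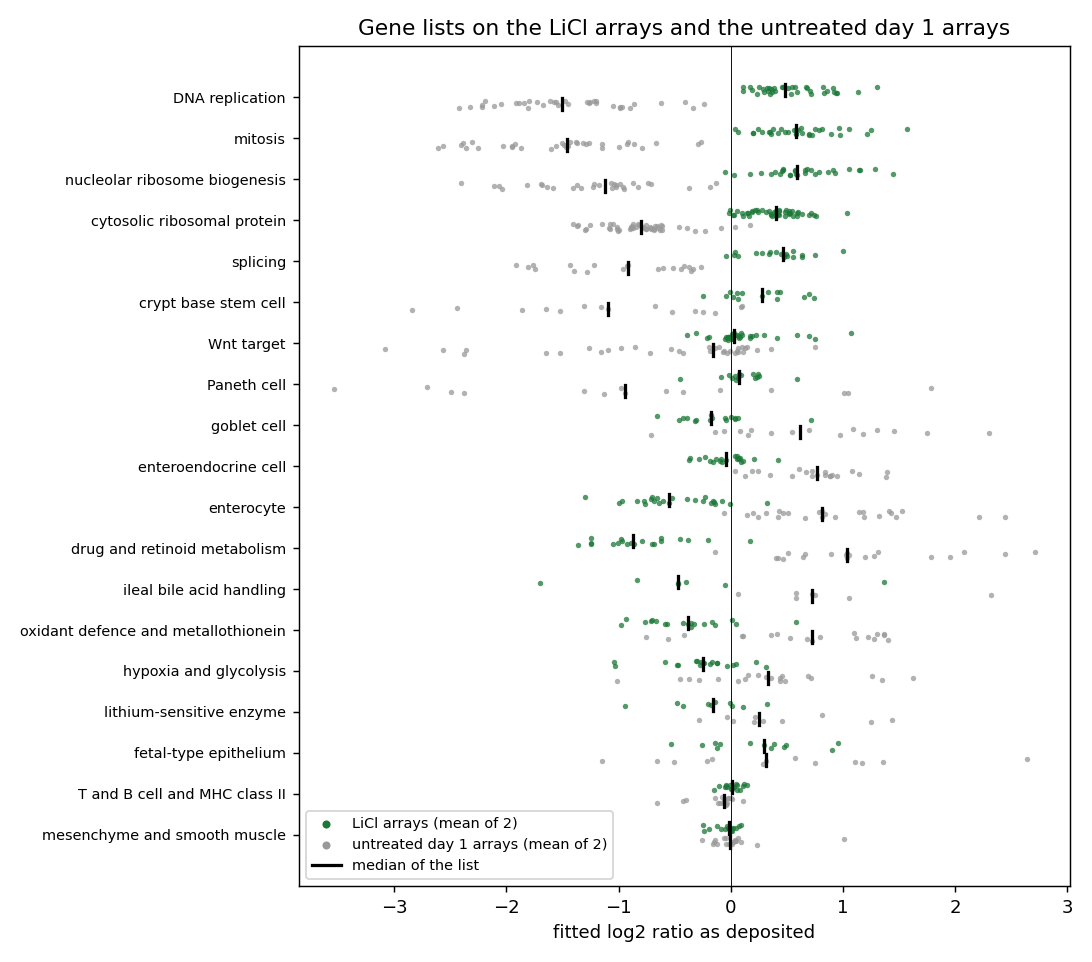
Fitted log2 ratio as deposited (x axis) of each member of 19 gene lists (rows), for the LiCl arrays (green, mean of 2) and the untreated day 1 arrays (grey, mean of 2), with black bars at list medians. Division and ribosome lists lie right of 0 with LiCl and left of 0 without, absorptive lists lie the other way, and Paneth cell genes sit near 0 with LiCl (median 0.07) but mostly well left of it without (median -0.94).

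Genes known as Wnt targets had a median near 0, with some members called above it. Of 34 measured, 19 had the same sign on both LiCl arrays, 13 above 0 and 6 below. Called were 4, all above 0, where 1.36% of all genes were called above 0. The list median was 0.03. Ccnd1, cyclin D1, which drives entry into the cell cycle, was at 1.08 and 1.07 (fitted 1.07 ± 0.09, 2.10-fold, adjusted p = 0.00977). Its relative Ccnd2 was at 0.60 and 0.91 (fitted 0.76, adjusted p = 0.0259), and Birc5 and Fosl1, an AP-1 transcription factor, at 0.70 and 0.59. The called Wnt targets are thus genes of the cell cycle and an AP-1 gene. Axin2, the feedback inhibitor often used to read Wnt activity, was at -0.19 and 0.18 (fitted -0.01 ± 0.14, adjusted p = 1), on opposite sides of 0. Myc was at 0.26 and 0.12 and Cd44 at 0.25 and 0.20, neither called, with the 8 probes of Cd44 spread from -0.12 to 1.04, and Sox9 disagreed between arrays at 0.70 and -0.68. The TCF/LEF letters CTTTGA or CTTTGT, on either strand, occurred in the promoter windows of 8 of the 23 Wnt target genes with a window (34.8%), 31.7% of all measured genes, 29.5% of genes called above 0 and 41.9% of those called below.

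The parts of the pathway itself were close to 0. None of 43 genes for Wnt ligands, receptors and the destruction complex was called in limma under either sign (1 at an unadjusted p under 0.05), and their fitted values ran from -0.35 to 0.38. Ctnnb1, beta-catenin, was at -0.11 on both arrays and Gsk3b, the kinase lithium inhibits, at -0.03 and 0.05. Of 10 genes for lithium-sensitive enzymes only Pgm1, a phosphoglucomutase of glycogen metabolism, was called, at -0.86 and -1.03 (fitted -0.94 ± 0.12, adjusted p = 0.016), with 2 called when the sign was turned. As deposited, Fbp1, of gluconeogenesis, at -0.37 and -0.60, Bpnt1, a nucleotide phosphatase, at -0.63 and -0.22, and Impa1, an inositol monophosphatase, at 0.00 and -0.28, were not. None of the 12 inositol and osmolyte transport genes or the 14 glycogen metabolism genes was called in limma (2 and 1 at an unadjusted p under 0.05), and with the sign turned only the inositol transporter gene Slc5a11 was, at -0.88 and -0.55 as deposited.

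Several Paneth and stem cell markers were near 0 on the LiCl arrays and well below 0 on the untreated day 1 arrays, so that the gap between the 2 pairs kept its direction under either sign. Lyz1, the lysozyme of Paneth cells, was at 0.19 and 0.21 on the LiCl arrays, against -3.90 and -3.18 on the untreated day 1 arrays. The LiCl arrays lay 3.74 above the untreated day 1 arrays as deposited (adjusted p = 0.000104) and 3.34 above with the sign turned (adjusted p = 0.000375). No LiCl value overlapped an untreated one. Mmp7, which activates defensins, was at 0.06 and 0.09 against -2.25 and -2.52 (difference 2.45, turned 2.31, adjusted p = 0.000447 and 0.00265), and the defensin Defa3 at 0.39 and 0.10 against -2.26 and -2.72 (2.74, turned 2.25). Of 15 Paneth cell genes 0 were called on the LiCl arrays (limma, under either sign, with 1 at an unadjusted p under 0.05). At day 1 without LiCl 7 were called below 0 and 2 above it, where 11.2% and 9.39% of all genes were. The 2 above were Nupr1 (1.79) and Mptx1 (1.01), at 0.25 and 0.21 and at 1.08 and 0.11 with LiCl. The difference was called above 0 in 7 under either sign. It was called below 0 in 1 as deposited (Nupr1, -1.56) and 2 with the sign turned (Nupr1, -2.02, and Mptx1, -1.60). For all genes the shares called above 0 in this difference were 10.4% and, with the sign turned, 3.87%. In RNA of whole crypts, fewer cells of a type and less RNA per cell cannot be told apart. A ratio near 0 says only that the 2 RNAs on an array held similar amounts, whether high or low. What the second RNA of the LiCl arrays was is not settled. Here and below, which RNA a difference between the pairs comes from therefore cannot be told.

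The list of crypt base stem cell markers had a median of 0.28 with LiCl, beside -1.09 without LiCl at day 1 and -0.12 at day 0. Of its 15 members, 10 had both LiCl arrays above 0 and 1 had both below. An unadjusted p under 0.05 was reached by 7, where 13.8% of all genes did, and 2 were called above 0, against 1.36% of all genes. Lgr5, the R-spondin receptor of these cells, was at -0.07 and -0.01 with LiCl and at -1.19 and -0.99 without (difference 1.05, turned 1.13, adjusted p = 0.00389 and 0.00682). Axin2 differed by 1.64 and 1.65 (adjusted p = 0.00155 and 0.00317), Smoc2, a secreted matrix protein, by 1.97 and 1.76, and Ascl2, a transcription factor of stem cells, by 1.58 and 1.46. Over these 4 genes, LiCl values ran from -0.19 to 0.22 and untreated day 1 values from -2.22 to -0.995, with no overlap. Smoc2 was picked after its values were seen. Other members lay further above 0 with LiCl, among them Cdca7 (0.39 and 0.44) and Cdk6 (0.50 and 0.37), neither called. Of 15 markers in the list 10 were called above 0 in the difference as deposited and 8 with the sign turned, none below. For all genes the shares called above 0 were 10.4% and 3.87%. Called above 0 on the LiCl arrays themselves were Slc12a2, the chloride-loading cotransporter of crypt cells (0.75 and 0.55, its 2 probes at 0.17 and 1.14), and Clca3b (0.96 and 0.53).

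Absorptive genes lay below 0. All 20 measured genes of drug and retinoid metabolism had the same sign on both LiCl arrays, 19 below 0, and 12 were called below 0, against 1.24% of all genes (list median -0.87, untreated day 1 1.04). The carboxylesterase Ces1d was at -1.34 and -1.39 (fitted -1.36 ± 0.10, 2.57-fold below 0, adjusted p = 0.00977). Adh1 and Adh4, alcohol dehydrogenases that also oxidise retinol, were at -1.24 on both arrays and at -1.23 and -1.27, and Aldh1a1, which makes retinoic acid, was at -0.90 and -1.07. All 4 enzymes were well below 0 on both arrays, with Aldh1a1 on replicate 1 the nearest to it. Ces2a (-1.25), the cytochromes P450 Cyp2c29 (-1.05), Cyp3a11 (-0.97), Cyp3a13 (-0.93), Cyp2d26 (-0.68) and Cyp2c55 (-0.62), and the conjugating enzymes Ugt2b34 (-0.89) and Sult1b1 (-0.86) completed the called members. Outside that list, the esterases Ces1g (-1.42) and Ces1f (-1.20) and the glutathione transferase Gstm3 (-1.26) were among the 15 lowest genes.

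Of 25 enterocyte markers 22 had both arrays below 0 and 1 had both above. Called were 3, all below 0, against 1.24% of all genes (list median -0.55, untreated day 1 0.81). Slc26a3, the chloride-bicarbonate exchanger of the brush border, was at -0.98 and -1.01 (fitted -0.995 ± 0.15, adjusted p = 0.0246), and Apoa1, a lipoprotein component, at -0.75 and -0.68 (adjusted p = 0.025). Cyp3a11 was the third. Fabp1, a fatty acid carrier, had the lowest fitted value, -1.30, with arrays at -1.01 and -1.58, and was not called (adjusted p = 0.211). With the sign turned, the difference from untreated day 1 was called below 0 in 5 enterocyte markers, against 19 as deposited, and in none above it. For all genes the shares called below 0 were 3.09% with the sign turned and 8.6% as deposited.

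Bile acid genes of the ileum lay mostly below 0. Of 7 measured, 5 had both LiCl arrays below 0 and 1, Fgf15, had both above (list median -0.47, untreated day 1 0.73). Fabp6, which carries bile acids through the enterocyte, was at -1.62 and -1.78 (fitted -1.70 ± 0.12, 3.25-fold below 0, adjusted p = 0.00977), and Slc51b, a subunit of the transporter that exports them, at -0.99 and -0.68 (fitted -0.83, adjusted p = 0.0346). Fgf15, the hormone that enterocytes release in response to bile acids, was at 1.37 and 1.36 (fitted 1.37 ± 0.15, adjusted p = 0.0127). Fabp6 and Fgf15 therefore lay on opposite sides of 0 with LiCl, whichever sign is taken, while both were above 0 at day 1 without LiCl (2.32 and 0.58). The difference from untreated day 1 was -4.02 for Fabp6 and 0.79 for Fgf15 as deposited, and -0.62 and -1.95 with the sign turned, each called.

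Goblet and enteroendocrine cell genes lay on both sides of 0. Of 16 goblet cell genes (median -0.17, from -0.66 to 0.72), 9 had both LiCl arrays below 0 and 2 had both above. Of 21 enteroendocrine genes (median -0.04), 8 had both below and 6 had both above. Neither list had a called member on the LiCl arrays in limma. An unadjusted p under 0.05 was reached by 6 and 2 of them, beside 13.8% of all genes. With the sign turned, the goblet cell list gave 1 call, Muc13, a membrane mucin, at -0.40 and -0.91 as deposited. On the untreated day 1 arrays 9 goblet and 14 enteroendocrine genes were called above 0, where 9.39% of all genes were. The difference from untreated day 1 was called below 0 in 8 goblet and 14 enteroendocrine genes as deposited and in 7 and 9 with the sign turned, beside 8.6% and 3.09% of all genes.

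Among called genes the highest on the LiCl arrays were 3 members of the prolactin family, hormones best known from placenta. Prl2c3 was at 1.98 and 2.23 (fitted 2.10 ± 0.16, 4.29-fold, adjusted p = 0.00977). Prl2c2 was at 1.45 and 2.06 (fitted 1.76, adjusted p = 0.0129) and Prl2c5 at 1.31 and 1.82 (fitted 1.56, adjusted p = 0.00977). They were at or above 1.31 on both arrays, and replicate 2 was the higher for each. These genes belong to a family of near copies and had 1 probe each; whether the probes tell them apart was not tested. To show how alike the genes are at their starts, the promoter windows of Prl2c3 (chr13:12800030-12800329, -) and Prl2c5 (chr13:13182466-13182765, +) are printed, with 287 identical bases, 12 mismatches and 2 gap bases when aligned.
Prl2c3: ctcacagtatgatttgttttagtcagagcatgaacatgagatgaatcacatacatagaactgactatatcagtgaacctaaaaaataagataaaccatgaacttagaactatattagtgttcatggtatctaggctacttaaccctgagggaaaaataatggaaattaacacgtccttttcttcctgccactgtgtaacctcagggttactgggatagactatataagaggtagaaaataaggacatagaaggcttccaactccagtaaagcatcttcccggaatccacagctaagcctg
Prl2c5: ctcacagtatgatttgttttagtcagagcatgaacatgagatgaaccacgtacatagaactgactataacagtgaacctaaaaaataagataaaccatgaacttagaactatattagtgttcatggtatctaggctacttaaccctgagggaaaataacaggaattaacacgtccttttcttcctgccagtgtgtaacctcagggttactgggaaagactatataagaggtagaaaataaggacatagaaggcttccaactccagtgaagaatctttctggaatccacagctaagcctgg
Unlike the division genes, these 3 genes were called above 0 at day 1 without LiCl too. None of the 3 was called at day 0 or day 0.5. Prl2c3 ran from 0.02 to 0.21 at day 0, from 0.44 to 0.96 at day 0.5 and from 3.59 to 3.92 at day 1. For Prl2c3 the LiCl arrays minus untreated day 1 gave -1.65 as deposited (adjusted p = 0.0024) and -5.86 with the sign turned (adjusted p = 3.11e-05).

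Other genes at the upper end have no list in common. Lor, loricrin, known from the cornified envelope of skin, was at 1.72 and 1.39 (fitted 1.55 ± 0.14, adjusted p = 0.00977) and was not called at day 1 without LiCl (-0.36). Its difference from untreated day 1 was called under both signs, at 1.91 as deposited and -1.20 turned. Bex1 was at 1.35 and 1.38 (fitted 1.36 ± 0.22, adjusted p = 0.0281), and Ppid, a cyclophilin that binds Hsp90, at 1.42 and 1.01 (fitted 1.21, adjusted p = 0.01). Kcne3, a potassium channel subunit that supports chloride secretion, was at 0.85 and 1.02 (fitted 0.93, adjusted p = 0.0259), and in the same list Slc12a2 was called above 0 and Slc26a6, an anion exchanger, below 0 (-0.74 and -0.67, adjusted p = 0.0437).

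At the lower end Reg3a, a secreted antibacterial lectin, was at -1.97 and -1.70 (fitted -1.83 ± 0.10, 3.57-fold below 0, adjusted p = 0.00478). It was between 0.46 and 0.61 on each of the 6 untreated arrays, so that no LiCl value overlapped them. With the sign turned the gap to untreated day 1 was 1.23 in place of -2.44, and both were called. Reg3a was the only 1 of the 30 extreme genes still called without either LiCl array (adjusted p = 0.0434 without replicate 1 and 0.0369 without replicate 2). Its relatives Reg3b, Reg3g and Reg1 were also below 0 on both arrays, but nearer to it and not called. Reg3b was at -0.37 and -0.49, Reg3g at -0.02 and -0.28 and Reg1 at -0.29 and -0.72. Their untreated day 1 values were 2.95, 1.59 and 0.72 (Reg3g was picked after its values were seen). For Reg3b and Reg3g the differences from untreated day 1 were -3.38 and -1.74 as deposited. With the sign turned they were -2.53 and -1.45, and all were called. Reg1 differed by -1.23 as deposited, which was called, and by -0.22 with the sign turned, which was not. In the list of 21 antimicrobial and inflammatory genes, with a median of -0.01, Reg3a and Pigr were the 2 called, both below 0. For all genes the share called below 0 was 1.24%. Pigr, which carries antibodies across the epithelium, was at -0.62 and -0.65 (fitted -0.63, adjusted p = 0.0366). Aoc1, diamine oxidase, which breaks down histamine and putrescine, was at -1.40 and -2.13 (fitted -1.77 ± 0.16, adjusted p = 0.00977), and Leap2, which opposes ghrelin at its receptor, at -0.95 and -1.59 (fitted -1.27, adjusted p = 0.0418). Bdh2, of ketone and siderophore metabolism, Abhd3, a phospholipase, Selenop, a selenium carrier, and Ssxb1 were fitted at -1.36, -1.20, -1.18 and -1.17.

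**Figure D3:**
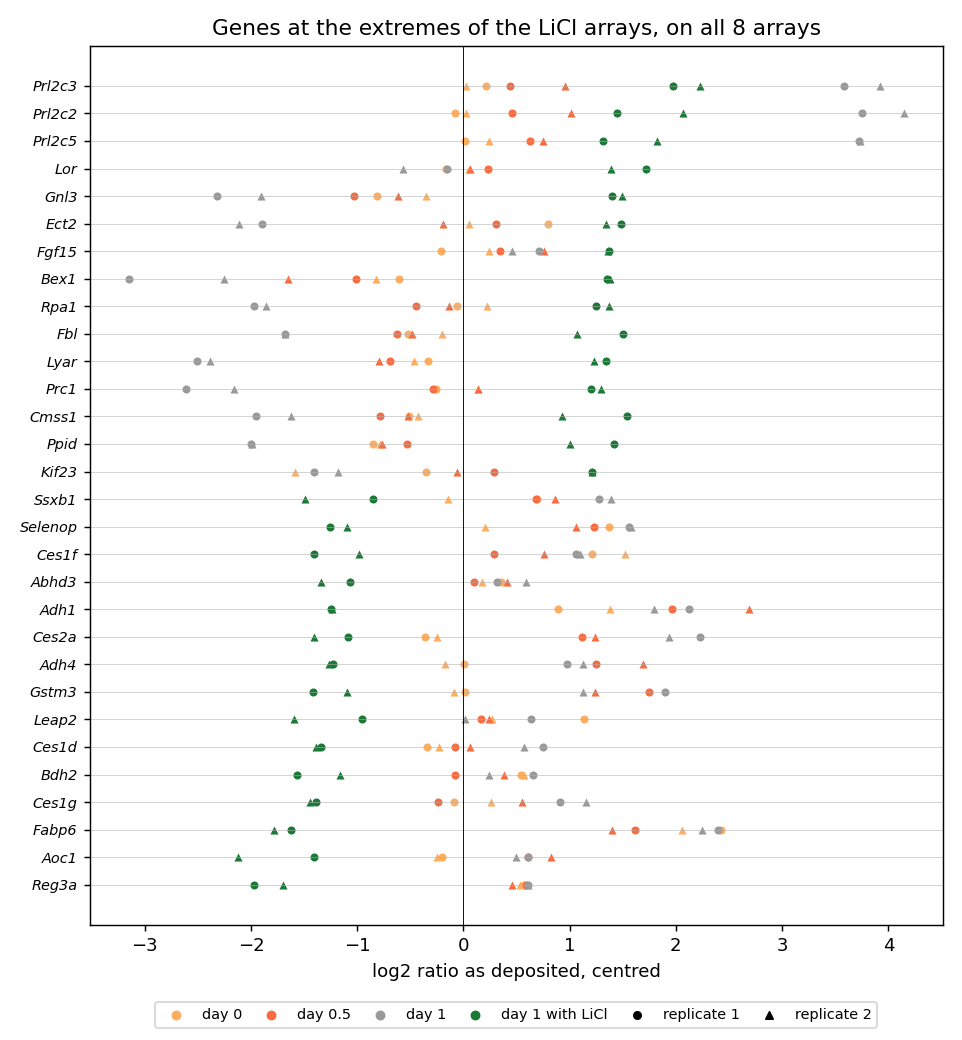
Log2 ratio as deposited (x axis) of the 15 highest and 15 lowest called genes of the LiCl arrays (rows) on all 8 arrays, with colour for the group and shape for the replicate. The green LiCl points stand apart from the grey day 1 points on the other side of 0 for most genes, while Prl2c2, Prl2c3, Prl2c5 and Fgf15 are above 0 in both.

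Stress and metabolic lists did not share a side of 0. Integrated stress response genes had 9 of 15 members above 0 on both arrays and 2 below (median 0.17, 1 called above 0), and immediate early and heat shock genes 10 of 17 above and 2 below (median 0.12, 0 called in limma, 2 at an unadjusted p under 0.05). The 18 unfolded protein stress genes had 12 below 0 and none above (median -0.14, 0 called, 3 at an unadjusted p under 0.05), and p53 target and cell death genes 6 above and 7 below (median -0.00, 1 called below 0). Oxidant defence and metallothionein genes had 16 of 19 members below 0 on both arrays and 3 called below 0, against 1.24% of all genes (median -0.38). The 3 were Cat, catalase, at -0.996 and -0.95 (adjusted p = 0.0443), Mt1, a metallothionein, at -0.93 and -0.94 (adjusted p = 0.0346), and Gclc, of glutathione synthesis, at -0.60 and -0.73 (adjusted p = 0.0218). The difference of oxidant defence genes from untreated day 1 was called below 0 in 13 as deposited and 4 with the sign turned. For all genes the shares called below 0 were 8.6% and 3.09%. In the hypoxia and glycolysis list 2 of 20 genes were called below 0, against 1.24% of all genes. They were Egln3, an oxygen-sensing hydroxylase (-1.04), and Ndrg1 (-1.03). Genes of fetal-type or regenerating epithelium had 8 of 13 members above 0 on both arrays and 4 below (median 0.30, 8 at an unadjusted p under 0.05). Anxa1, the highest of them at 1.04 and 0.87, was called only with the sign turned (limma, adjusted p = 0.0598 as deposited and 0.0305 turned). Ccn2, a secreted matrix protein and YAP target, was called above 0 (0.91 and 0.90, adjusted p = 0.0348) and Sprr1a below (-0.51 and -0.55, adjusted p = 0.0425). Their day 1 values without LiCl were -1.15 and 2.65. For Ccn2 the difference from untreated day 1 was 2.05 as deposited (adjusted p = 0.000954) but 0.24 with the sign turned (adjusted p = 0.69), whereas Sprr1a differed by -3.18 and -2.11 (adjusted p = 9.42e-05 and 0.000708).

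Markers of other cells that crypt preparations can hold stayed near 0 on the LiCl arrays. None of 18 mesenchyme and smooth muscle genes (-0.24 to 0.09), 18 T and B cell and MHC class II genes (-0.15 to 0.14), 11 macrophage and dendritic cell genes (-0.23 to 0.45), 11 endothelium genes (-0.10 to 0.25), 4 red blood cell genes (-0.11 to -0.04) or 7 glia and neuron genes (-0.03 to 0.06) was called in limma under either sign. Over these 69 genes 1 had an unadjusted p under 0.05, where 13.8% of all genes did.

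Against the untreated day 1 arrays, 2868 genes differed as deposited (19.0% of those tested, 1567 higher with LiCl and 1301 lower) and 1054 with the sign of the LiCl arrays turned (6.97%, 586 higher and 468 lower). Of the 206 genes called above 0 with LiCl, 174 were called below 0 without (84.5% of the LiCl genes, 10.2% of the 1699 day 1 genes), 15 above 0 (7.28% and 1.06%), and 17 were not called. Of the 187 called below 0, 148 were called above 0 without LiCl (79.1%, and 10.4% of 1420), 2 below 0, and 37 were not called. As deposited most of these genes thus lay on opposite sides of 0 in the 2 pairs of arrays, and with the sign turned they would lie on the same side. Whatever the sign, the LiCl value was the nearer to 0 in 159 of those 174 genes and 104 of those 148. The LiCl arrays were also narrower over all genes (SD 0.288 and 0.262, against 0.519 and 0.485 at untreated day 1). These genes were moreover chosen as called at day 1. The share over all genes was not counted, so the 2 counts say nothing particular to these genes. For Ccnd1 the 2 pairs stood at 1.07 and -3.09 (difference 4.16 as deposited and 2.01 with the sign turned, adjusted p = 9.42e-05 and 0.000708). In 103 of the 206 genes and 32 of the 187 the difference was called under both signs. The share of all genes called under both signs was not counted, but it cannot exceed the 6.97% called with the sign turned. The LiCl values that chose these genes also enter the difference, so the counts of 103 and 32 say nothing particular to them. For DNA replication the difference was called above 0 in 33 of 36 genes as deposited and in 21 with the sign turned. For nucleolar ribosome biogenesis it was called above 0 in 27 and 11 of 30, beside 10.4% and 3.87% of all genes. For drug and retinoid metabolism it was called below 0 in 17 and 4 of 20 genes (1 above with the sign turned), beside 8.6% and 3.09%.

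**Figure D4:**
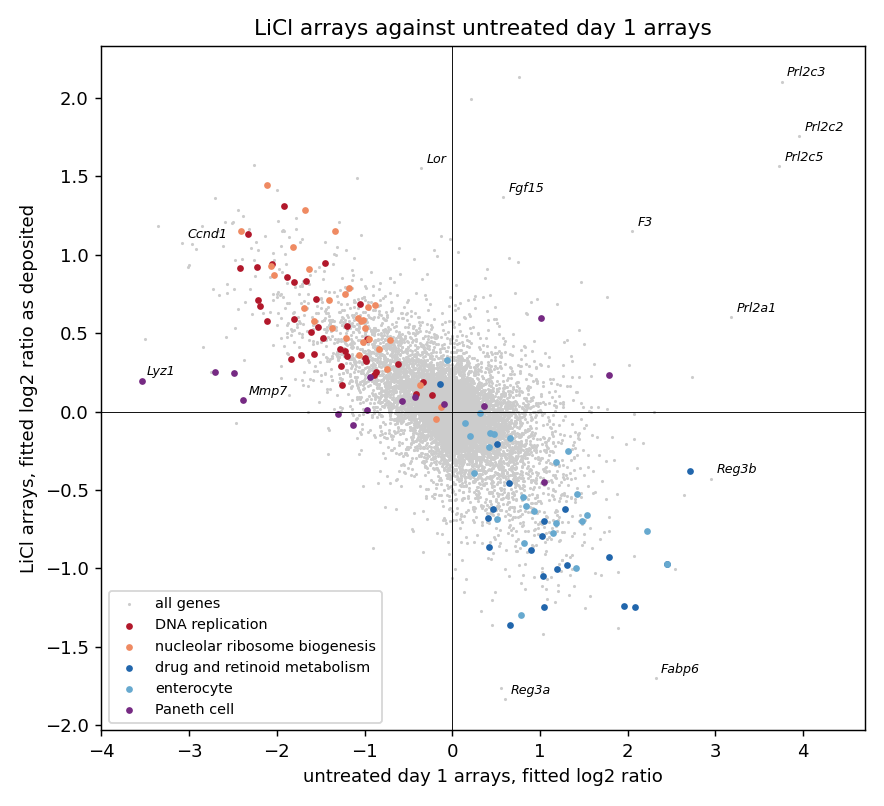
Fitted log2 ratio on the LiCl arrays (y axis, as deposited) against the untreated day 1 arrays (x axis), with 1 point per gene and 5 gene lists in colour. Replication and ribosome genes lie upper left and drug metabolism and enterocyte genes lower right; Lyz1 and Mmp7 lie far left near 0 on the y axis, and the prolactin family genes far right and above 0.

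Some large single-array values were not shared. Slc33a1 was at 4.49 on replicate 1 and -0.22 on replicate 2, and Stx1a at 3.69 and 0.29. Lypla2 was at 2.02 and -1.08, Olfr665 at 0.16 and -1.97, and Wscd2 at -2.12 and -0.02, with its 2 probes at -2.18 and 0.05 on average. None of these 5 genes, which had the widest gaps between the LiCl arrays, was called (limma, lowest adjusted p = 0.113).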

How the data were processed

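Each of the 8 arrays (MEEBO, long-oligonucleotide probes) compared 2 RNAs in 2 dyes, which the labels swap within the LiCl, day 0 and day 1 pairs but not at day 0.5. The authors deposited 1 value per probe and array, which were taken as log2 ratios, and turned dye-swapped arrays the same way, as the positive correlations within each pair of swapped arrays show. How background was corrected and arrays were normalized is not given in the sources used here. Scanner intensities were not used here, which leaves signal over background unknown, and the number of arrays limits the precision.

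Of 38467 probes, 22941 had 1 gene symbol in the platform annotation, 0 several and 15526 none; all 22941 gene IDs matched the reference table. After 636 named probes of other series were left out, 22305 probes were averaged into 15123 genes, 10015 with 1 probe, and array medians were then set to 0. limma 3.58.1 (R 4.3.3) fitted a mean for each of 4 groups plus a term for the dye of the null RNA; genes with a Benjamini-Hochberg adjusted p under 0.05 over all genes were called. The contrasts were LiCl against 0, and LiCl minus untreated day 1 under both signs. The method was tested on simulated data. Tables and figures used Python 3.11.15.

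Named genes were the 15 highest and 15 lowest called genes, called list members and up to 4 of the largest same-sign members per list, fixed markers, the 5 genes with the widest gap between LiCl arrays, and the 5 highest and 5 lowest in LiCl minus day 1; exceptions are marked in the text. The members, lists and tests were chosen with earlier results of these data known. Alternatives were the dye term, scaling, centring, probe averaging, probe set, replicate number as a fixed or random block, robust variance, each array left out, LiCl arrays alone, and the turned sign, which for LiCl against 0 was added after the data were seen.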

Additional observations from a re-analysis of the deposited data

Results flagged for a closer look

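The difference between the LiCl arrays and the untreated day 1 arrays was called in 2868 genes as deposited, which marks them as a pair of groups whose ratios differ. The 5 highest differences were H2ac15 at 4.53, Ccnd1 at 4.16, Bex1 at 4.06, and H2ac22 and Pbk, a mitotic kinase, at 4.03 each. The 5 lowest were Fabp6 at -4.02, S100g, a calcium carrier of enterocytes, at -3.55, Cyp3a11 at -3.42, Reg3b at -3.38 and Ces2a at -3.33. With the sign of the LiCl arrays turned, the differences were H2ac15 2.17, Ccnd1 2.01, Bex1 1.34, H2ac22 1.90, Pbk 1.67, Fabp6 -0.62, S100g -1.54, Cyp3a11 -1.47, Reg3b -2.53 and Ces2a -0.83 on the log2 scale, each of them still called. The 2 signs therefore change the size of these differences but not their direction. Each group held 2 arrays, too few to look for a single array far from the rest.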

How the results depend on the processing

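The count of 393 genes called on the LiCl arrays was 740 with the sign of both LiCl arrays turned, 1461 with arrays scaled to equal spread, and 0 for the LiCl arrays alone (limma), where 1 residual degree of freedom remained. Leaving out 1 array gave 4 to 305 genes: 8 without LiCl replicate 1, 4 without LiCl replicate 2, where the lone array was assumed to vary like the other groups, and 90, 211 and 305 when an untreated array of day 0, day 1 or day 0.5 was left out, whichever replicate it was. Under the other 6 settings it was 387 to 581. With the replicate number as a replicate block it was 928 genes (494 above 0, 434 below); the labels do not say that a number pairs samples, and replicate differences correlated over genes with r of 0.21 to 0.278 between all pairs of groups. The 2868 genes that differed from untreated day 1 became 1054 with the sign turned and 1488 to 2853 with 1 array left out, the lowest without day 1 replicate 1 (1742 without day 1 replicate 2). For genes named in the text, 3491 of the recomputed values against 0 stayed on the same side of the threshold, 541 lost their call, 90 gained one and 43 moved without a call; no called value changed sign, the turned sign aside, which was run only for counts and for the differences from day 1. The 10 genes with the widest differences from untreated day 1 stayed called in all 180 recomputed values. The causes of these changes were not tested.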

Other observations

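The next 5 genes encode enzymes of fatty acid breakdown and were picked after their values were seen, from no list, so they say nothing of that pathway as a whole. Crot, which hands medium-length fatty acids from peroxisomes to carnitine, was at -1.06 and -0.99 (fitted -1.03, adjusted p = 0.01). Acaa1b, a peroxisomal thiolase, was at -1.18 and -1.08, and Acad11, an acyl-CoA dehydrogenase, at -1.18 and -1.03. The mitochondrial enzymes Acadm and Hadh were at -0.61 and -1.27 and at -0.89 and -0.79. Untreated day 1 values were called above 0 for Crot (1.03), Acaa1b (1.07) and Acad11 (1.20), but not for Hadh (0.17) or Acadm (0.44). The difference from untreated day 1 was called for all 5 as deposited (-2.30 to -1.01), and with the sign turned only for Hadh (0.67, adjusted p = 0.0463).

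The 15 genes called above 0 both with LiCl and without it at day 1 included Prl2a1 beside the Prl2c genes, at 0.48 and 0.73, with a fitted untreated value of 3.18. Others, also picked after their values were seen, were F3, the tissue factor that starts coagulation, at 0.98 and 1.32 (untreated 2.05), Plaur, the urokinase receptor, at 0.75 and 1.20 (0.65), Krt19, a keratin, at 0.80 and 0.46 (0.84), and Mal, an apical transport protein, at 0.77 and 0.88 (1.47). As deposited, the difference from untreated day 1 was called for Prl2a1, F3 and Mal but not for Plaur or Krt19, and with the sign turned it was called for all 5, from -3.79 for Prl2a1 to -1.47 for Krt19. Tnfrsf12a, the TWEAK receptor, at 1.59 and 0.64, and Hs3st1, a heparan sulfate sulfotransferase, at 1.14 and 1.06, were called above 0 with LiCl only as their untreated values of -0.13 and -0.03 were not called; the LiCl minus day 1 difference was called as deposited for both (adjusted p = 0.00691 and 0.00196) and with the sign turned for Hs3st1 (0.00917) but not Tnfrsf12a (0.126). Of all genes called below 0 with LiCl, Mgst1 (-0.64) and Pank3 (-0.87), chosen after their values were seen, were the 2 also called below 0 without it, at -0.43 and -0.91. The difference for these 2 was not called as deposited (-0.21 and 0.04) and was called with the sign turned (1.08 and 1.78).

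The lists not described above had at most 1 called member each on the LiCl arrays, and their medians lay between -0.17 for cholesterol synthesis and 0.09 for reserve stem cells. The 18 interferon response genes with the same sign on both arrays were below 0 in 15, with 0 called in limma as deposited (2 at an unadjusted p under 0.05) and 1 with the sign turned.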
